A study of Mus musculus with 2 samples.

Results

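The cytosolic ribosome of MIN6 cells, a mouse insulinoma line used as a model of the pancreatic β cell, was examined through its protein genes. A probe was counted as a member when its accession maps to a gene whose symbol is Rpl, Rplp, Rps or Rpsp followed by a number, with at most a final a, l or x, or to Rpsa. This gave 171 probes of 82 genes, of 39417 probes and 20653 named genes in all. Of the 82 genes, 50 belong to the large subunit (Rpl and Rplp) and 32 to the small subunit (Rps and Rpsa). Among the small subunit members, Rps4l is annotated as a transcribed pseudogene. The cells were at passages 15 to 20 and had been transduced with lentivirus made from the vector pLVX-IRES-ZsGreen1, either carrying mouse FTO or empty, so that both groups share the virus and the ZsGreen reporter. There was 1 array per condition, called here the FTO-labelled array and the control-labelled array. No difference below therefore has a replicate check or a p-value, and precision is limited by there being 1 array on each side. The question for this gene group was whether the RNA of ribosomal proteins, and of either subunit, differed between cells given FTO and cells given the empty vector.

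Ribosomal proteins bind the ribosomal RNAs to form the small subunit, which decodes the mRNA, and the large subunit, which joins amino acids and holds the tunnel through which the new chain leaves. The proteins are made in nearly equal numbers, since each ribosome needs a copy of almost every one, and their mRNAs are among the most abundant of a growing cell. Many of these mRNAs begin with a C followed by a run of pyrimidines, the 5′ terminal oligopyrimidine element, through which mTOR signalling adjusts their translation. In β cells the ribosome carries the load of proinsulin synthesis.

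The pyrimidine element was looked for around the annotated transcription starts of the members, because it is a sequence feature that the choice of members did not use. In RefSeq sequence of GRCm38.p6, 61 of the 82 genes were matched by symbol, with 73 annotated starts on 17 chromosomes. A tract was defined as a C followed by at least 6 bases that are each C or T, on the strand of the gene, within 15 bases on either side of the start. It was found at 33 of the 73 starts (45.2%), against 14.2% of 32851 starts of all genes and 14.9% of 74 starts of mitochondrial ribosomal protein genes. The share was 46.7% of 45 large subunit starts and 42.9% of 28 small subunit starts. The exact letters CTCTTTC on the same strand, which can lie inside the tract, stood at 6 member starts (8.22%), against 0.408% of all starts. The tract length was chosen after its counts had been seen. The windows of 30 bases below are of genes that come up again with the array values, 7 with a tract, shown in capitals, and 1 without. They are examples and do not reflect the share of 45.2%. Rps27l also has a further annotated start without a tract, which is not shown.

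Rpl28, GRCm38.p6, chr7:4792950-4792979, plus strand: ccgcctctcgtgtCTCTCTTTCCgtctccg

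Rps15a, GRCm38.p6, chr7:118116133-118116162, minus strand: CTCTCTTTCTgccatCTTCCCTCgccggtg

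Rpl18, GRCm38.p6, chr7:45718056-45718085, plus strand: tgcgtctcgcaggccgCTCTTTCCCCgccc

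Rpl4, GRCm38.p6, chr9:64173372-64173401, plus strand: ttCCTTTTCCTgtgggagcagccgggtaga

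Rps9, GRCm38.p6, chr7:3704026-3704055, plus strand: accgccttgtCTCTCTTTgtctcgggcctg

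Rps27, GRCm38.p6, chr3:90213634-90213663, minus strand: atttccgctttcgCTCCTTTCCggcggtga

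Rps27l, GRCm38.p6, chr9:66946071-66946100, plus strand: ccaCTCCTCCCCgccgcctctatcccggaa

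Rps23, GRCm38.p6, chr13:90923107-90923136, plus strand: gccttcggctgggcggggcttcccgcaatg

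On the arrays, the 32 genes with a tract at a start had a median log2 difference of -0.01 (FTO minus control), and the 29 genes with a listed start and no tract also had a median of -0.01. These values are after quantile normalization. The ranges, -0.24 to 0.24 with the tract and -0.17 to 0.88 without, overlapped, and the difference between the groups was not tested. A tract in this window is a match of letters only and was not tested as a functional element.

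The values were background-subtracted spot intensities from Agilent Feature Extraction, taken to log2 and quantile normalized over both arrays. Probes well above background on 1 or both arrays were examined for a difference. Leaving out control spots, the FTO-labelled array had a median signal of 292 and the control-labelled array one of 237, and 0 spots were saturated. Fto itself, the overexpressed gene, read 7301 and 5179 (here and below, the FTO-labelled array first). Its log2 difference of 0.06 was smaller than the spot error of 0.20, so the direction of each difference rests on the array labels. Signals are given before normalization, on which the FTO-labelled array was brighter by a median of 0.36 (log2) over all genes, and log2 differences after it, so a probe can be brighter in signal and lower in difference. All 10 β cell markers examined were well above background on both arrays. Among them were Ins1, at 215620 and 220341, and the islet amyloid gene Iapp, at 257060 and 281355. The α cell hormone Gcg also had a bright probe, at 257738 and 243795. Markers of other cells had lower signals, for example Cpa1 (acinar cells) at 69.9 and 51.7, Ptprc (leukocytes) at 33.7 and 38.0, and Col1a1 (fibroblasts), above the array medians, at 515 and 362. The same mass of labelled cRNA went onto each array, so a signal is a share of the RNA, and fewer cells and less of an mRNA per cell cannot be told apart.

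Ribosomal protein probes were among the brightest on both arrays. Of the 171 probes 169, from 81 genes, were well above background on both arrays, and 2 were above it on neither. Signals of the 169 before normalization ran from 20.0 to 324175 on the FTO-labelled array, with a median of 136315, and from 19.3 to 338089 on the control-labelled array, with a median of 113325. Members made up 24 of the 100 brightest probes on the FTO-labelled array and 22 on the control-labelled array, although they are 0.434% of the probes. The median member stood at percentile 98.3 of its array on the FTO-labelled array and 98.4 on the control-labelled array.

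**Figure D1:**
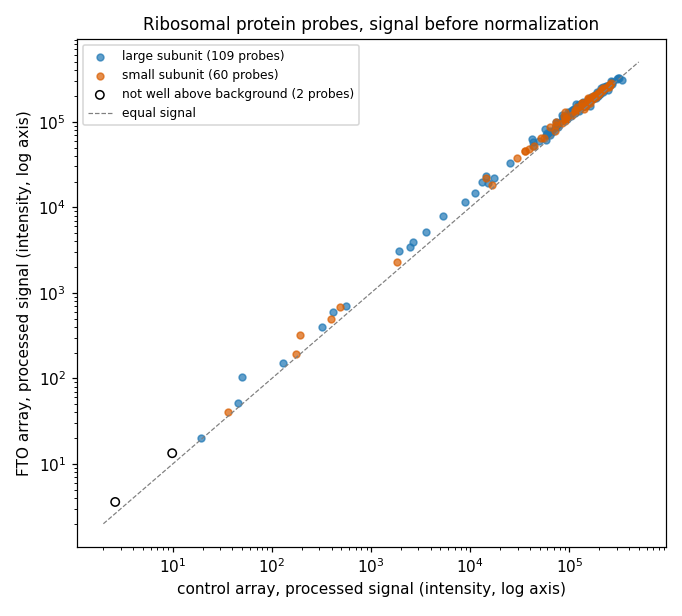
Processed signal (intensity, log axes) of each ribosomal protein probe on the control array (horizontal) and the FTO array (vertical) before normalization; blue and orange points are probes of the large (109) and small (60) subunit, open circles the 2 probes not well above background, and the dashed line equal signal. Of the 169 filled points 166 lie above the line, and the distance from it narrows at the bright end.

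After quantile normalization the ribosomal protein genes as a group had a median near 0. The median log2 difference of the 81 genes was -0.001, and over all 18507 genes tested it was 0.01. With the value of a gene taken as the median of its probes, 38 genes lay above 0 and 41 below 0, while 51.7% of all genes lay above and 48.2% below 0. Past 2-fold (a log2 difference over 1 or under -1) were 0 of the 169 member probes, against 3.48% of all probes, and hence 0 of 81 genes, against 3.21% of all genes with such a probe. Bright probes rarely passed this limit in any group, with 0 of 1445 probes of a mean log2 signal over 16. At a smaller limit of 0.25 on either side, chosen after the values had been seen, 6 member probes passed of 169, against 28.3% of all probes. Of the 128 member probes with a mean log2 signal over 16, 0 passed it, against 3.94% of all probes of that brightness.

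Most differences also lay within the modelled error of single spots. The Feature Extraction error model gave a median error of 0.20 for the log2 difference of a member probe, a value that bright probes share because the model sets it in proportion to the signal. Within their own modelled error lay 156 of the 169 differences. The spread measured between spots of repeated probes was smaller, at 0.08 for a log2 difference. A difference within the modelled error is thus not always within the measured spread of spots. The other 13 of the 169 differences, of which 7 were higher and 6 lower on the FTO-labelled array, compare with 32.4% of all probes beyond their modelled error. Among probes with a mean log2 signal over 16, 7 of 128 members were beyond the modelled error, against 9.76% of all probes. Rpl23 was the member with a probe printed 10 times. Its signal was 14679 ± 746 (SD, n = 10 spots) on the FTO-labelled array and 11159 ± 554 on the control-labelled array, which is a log2 SD of 0.07 on each array. Its log2 difference after normalization was -0.05. This is a difference of means over 10 spots on each array, for which the modelled error was 0.06.

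Large and small subunit genes overlapped, with medians on either side of 0. The 50 large subunit genes had a median log2 difference of 0.01, with 28 above and 21 below 0 and the middle 50% of genes between -0.08 and 0.07. The 31 small subunit genes had a median of -0.02, with 10 above and 20 below 0 and the middle 50% between -0.07 and 0.04. The medians of the subunits lay 0.03 apart. Under every normalization tried the gap stayed between 0.02 and 0.03. The ratio of the summed signals of large to small subunit probes, taken before normalization, was 1.85 on each array. With 1 array per condition this gap was not tested.

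**Figure D2:**
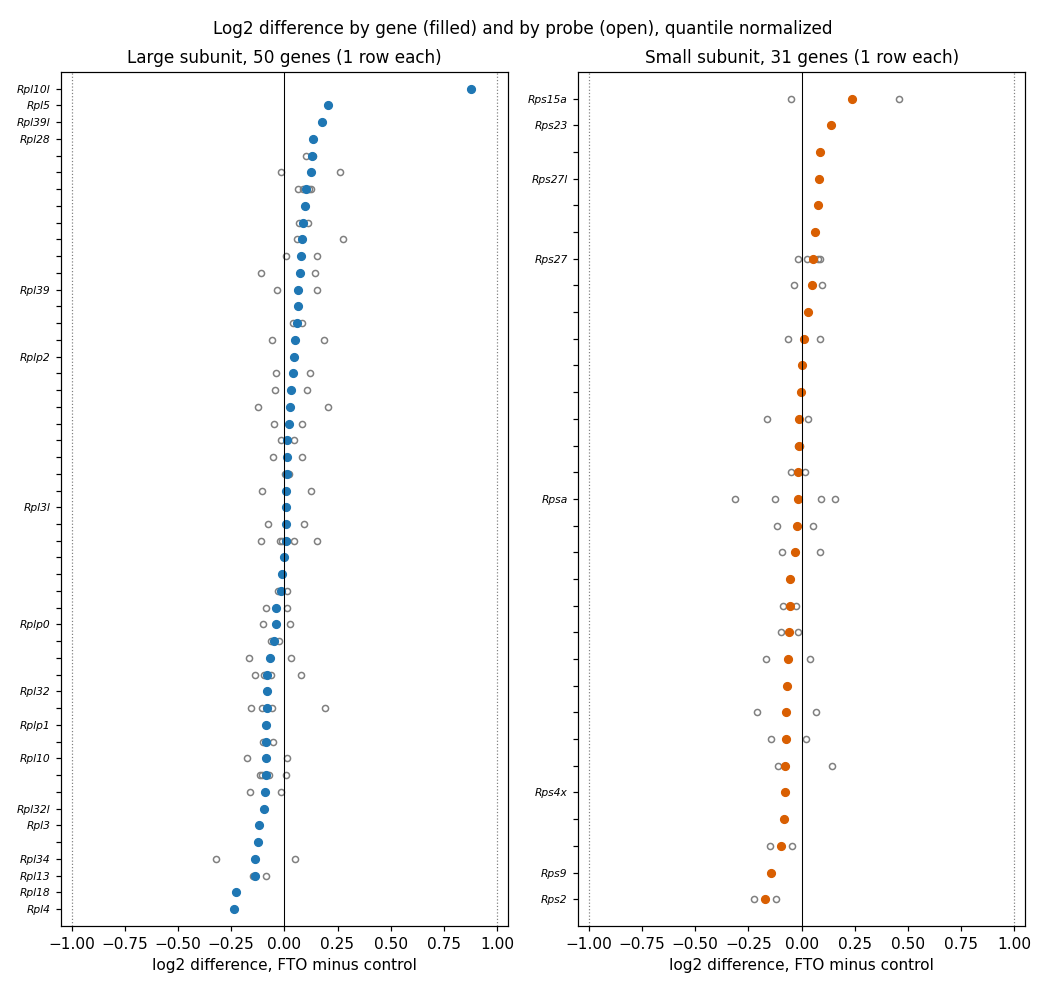
Log2 difference (FTO minus control, horizontal axis) of each ribosomal protein gene after quantile normalization, with large subunit genes left and small subunit genes right; each row is a gene, with symbols written for the genes chosen by the naming rule, filled points are gene values, open circles single probes, and dotted lines 2-fold. Apart from Rpl10l at 0.88, every gene lies between -0.24 and 0.24, and both panels are centred near 0.

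The lowest gene was Rpl4, whose protein lines the exit tunnel. Its single probe had signals of 154267 and 159456 on the arrays labelled FTO and control. The log2 difference was -0.24, past its spot error of 0.20, and Rpl4 was one of 3 genes, with Rpl6 and Rpl10, that had a probe dimmer on the FTO-labelled array even before normalization. Rpl18 followed with a log2 difference of -0.23 from signals of 70800 and 64053. Both Rps2 probes were lower, by log2 differences of -0.22 and -0.12. Rps2 and Rps9, whose log2 difference was -0.15, encode proteins at the entry of the mRNA channel. All 3 Rpl13 probes were lower, between -0.15 and -0.09 on the log2 scale. The Rpl34 probes split, at -0.32 and 0.05. Rpl34, with a gene value of -0.14, thus owed its place among the lowest to 1 of its 2 probes.

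At the upper end stood Rpl10l, a copy of Rpl10 known mainly from testis. Its measured probe read 103 and 50.4, dim but well above background on both arrays. After normalization the log2 difference was 0.88, where the spot error was 0.22. Other probes of such low signal (mean log2 signal up to 8) had an SD of 0.64 between the arrays. The second Rpl10l probe was not well above background, with signals of 3.59 and 2.63. Under normexp the difference of the first probe was 0.37.

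The next genes were Rps15a at 0.24, Rpl5 at 0.20, Rpl39l at 0.18, and Rps23 and Rpl28 at 0.14 on the log2 scale. Rpl5, which carries 5S ribosomal RNA into the large subunit and can bind the p53 regulator Mdm2, had signals of 159145 and 117865 with a spot error of 0.20. Rps23, a protein of the decoding site, had signals of 188955 and 153863. These values depended on the scaling. With the 75th percentile Rpl5 and Rpl28 lay at 0.01 and 0.005 and Rps23 at -0.13, and with cyclic loess Rps23 lay at -0.03. The single Rpl5 probe also lay in a part of the FTO-labelled array where dim repeated probes had lost signal. No value without that part exists for Rpl5. Rps15a was the member whose probes lay farthest apart. One probe read 322 and 192 with a log2 difference of 0.46, a second had 131733 and 90848 and a difference of 0.24, and the last had 138321 and 119652 and a difference of -0.05. The largest difference of Rps15a came from its dimmest probe, while the bright probes lay on either side of 0. The probe at 0.24 also lay in the part where dim probes had lost signal, and without that part the Rps15a value was 0.20.

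Probes of the same gene mostly lay close together in log2 difference, but about as far apart as the values of different genes. In the 51 genes with at least 2 tested probes the median span between the lowest and highest log2 difference was 0.15, from 0.01 to 0.51, against a median of 0.17 in 4735 other named genes. The other genes were not matched to the members for brightness. The SD between probes of a gene had a median of 0.09. The SD between the gene values was 0.13, and 0.09 when Rpl10l was left out. Without Rpl10l these SDs were thus similar, although the first is over the few probes of a gene and the other over gene values. In 35 of the 51 genes at least 1 probe lay above and 1 below 0. All probes were higher in 7 genes, among them Rpl31 with 4 probes between 0.07 and 0.12 and Rpl27a with 3 probes between 0.10 and 0.14. All were lower in 9 genes, such as Rpl13a with 3 probes between -0.10 and -0.05.

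Signals of probes for the same gene could lie far apart, with differences close together in some of these genes and not in others. In 19 of the 51 genes the brightest probe was over 10 times as bright as the dimmest on the control-labelled array. For Rpl6, 3 probes had signals between 178592 and 242739 on that array and the last had 130, with log2 differences of -0.11 to 0.01 over all 4. In contrast, Rps15a and Rpsa had the widest spans of log2 difference, 0.51 and 0.47. Their control signals ran from 192 to 119652 and from 486 to 153694. The probes assigned to Rps27a, which is made as a fusion with ubiquitin, had control signals of 162839, 173803 and 35.9. Signal between probes depends on the probe as well as the RNA, so no order of mRNA levels was read from these values. Ribosomal protein genes have many processed copies in the genome, and which copies a probe could also bind was not analysed here.

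Genes with known roles beyond the extremes were spread around 0 as well after quantile normalization (examples chosen after their values had been seen). Rpl11, the partner of Rpl5 in the 5S particle and in binding Mdm2, had 3 probes between -0.05 and 0.08 and a gene value of 0.02, below that of Rpl5. Rps6, the small subunit protein phosphorylated by S6 kinase downstream of mTOR, had 3 probes between -0.11 and 0.14 and a value of -0.08. Rps19, the gene most often mutated in Diamond-Blackfan anaemia, read 37922 and 29448 with a log2 difference of -0.07. These values all lay within the spot error. Rpl22, Rpl26 and Rpl38, which have known links to lymphocyte development, to translation of the p53 mRNA and to that of Hox mRNAs, had gene values of 0.04, 0.03 and 0.01. Rpl41, the smallest member of the ribosome, had signals of 320836 and 311303 and lay at 0 to 2 decimals of the log2 difference. Rpl17 had the most probes, 7 of them, and their differences ran from -0.11 to 0.16 around a gene value of 0.01. With the 75th percentile these genes, Rpl5 aside, all lay below 0, from -0.38 for Rpl41 to -0.06 for Rps19 and Rpl22. With cyclic loess they also all lay below 0, with Rpl41 at -0.25.

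The proteins of the ribosomal stalk, which recruits translation factors, had small differences after quantile normalization. Rplp0 had 3 probes with log2 differences between -0.10 and 0.02, the Rplp1 probe had signals of 88371 and 73718 and a difference of -0.08, and the Rplp2 probe had 319834 and 299212 and a difference of 0.05. With 75th percentile scaling Rplp0, Rplp1 and Rplp2 lay at -0.35, -0.16 and -0.33, and with cyclic loess at -0.24, -0.09 and -0.20, so the direction of Rplp2 turned. The single Rplp2 probe also lay in the part of the FTO-labelled array where dim probes had lost signal. Rpsa, a small subunit protein also known as a precursor of the laminin receptor, had 4 probes with differences of -0.31, -0.12, 0.09 and 0.16, and a gene value of -0.02. Its probes disagreed in direction, so no shift of Rpsa could be read.

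The copies of ribosomal protein genes with a restricted pattern were mostly dim. Rpl3l, which replaces Rpl3 in striated muscle, read 20.0 and 19.3 and differed by 0.01 (log2) against a spot error of 0.34. Rpl3 read 125089 and 111657 with a log2 difference of -0.12. Rps4l, annotated as a transcribed pseudogene, was well above background on neither array, at 13.4 and 9.88. Its counterpart Rps4x had signals of 64016 and 51293 and a difference of -0.08. The probe of Rpl39l, a testis form of Rpl39, had signals of 596 and 415 and a difference of 0.18, within its spot error of 0.20, and the 3 Rpl39 probes lay between -0.03 and 0.15. Rpl10, whose protein joins the large subunit late in its assembly, had 3 probes between -0.18 and 0.01.

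The other copies were bright. Rps27l, known as a p53 target, read 115428 and 87632 with a log2 difference of 0.08, and 4 Rps27 probes lay between -0.02 and 0.09. Rpl32l had signals of 150905 and 138886 and a difference of -0.10, next to 222942, 220516 and -0.08 for Rpl32.

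The scaling between arrays set the level of the whole group. Quantile normalization gives the brightest probes of both arrays the same values by construction, where many members lie. With each array scaled by its 75th percentile instead, the median log2 difference of the 81 genes was -0.23, with 75 genes below 0, where 63.3% of all genes lay below 0 and the median of all genes was -0.07. With cyclic loess it was -0.12, with 69 genes below 0, against 50.3% of all genes. With normexp background correction followed by quantile normalization it was -0.01. Below 0 were 44 genes, against 48.2% of all genes. Before any normalization the median was 0.19, against 0.36 over all genes. Relative to the median of all genes, the members thus lay at -0.01 with quantile normalization, at -0.12 with cyclic loess, and at -0.17 with the 75th percentile. The relative value before normalization is the same by construction, because 75th percentile scaling only subtracts a constant from each array. The group was level or lower on the FTO-labelled array depending on the scaling, and with none of them higher than all genes.

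The shift with the scaling depended on brightness, and members were like other probes in the brightest class and not in each of the other classes. Among probes with a mean log2 signal over 17, the 81 members had a median difference of -0.30 under 75th percentile scaling and the 513 other probes a median of -0.28. Under quantile normalization these medians were 0.02 and -0.01. Between 16 and 17, 47 members had a median of -0.16 under 75th percentile scaling and 804 other probes -0.10. Between 12 and 16, where 75th percentile scaling left the other probes at 0.01, 25 member probes had a median of -0.07, and with quantile normalization -0.08 against 0.004. In the dimmer classes the members lay above the other probes with quantile normalization, 9 members between 8 and 12 at 0.09 against 0.01, and 7 members up to 8 at 0.08 against 0.01. The share of the summed signal of all probes was taken before normalization. A constant factor per array leaves this share unchanged, but a normalization that acts by brightness does not. The share was 5.81% for members on the FTO-labelled array and 6.40% on the control-labelled array. Members over 17 took 4.27% and 4.84%, and other probes over 17 took 24.9% and 28.0%. Members and other bright probes thus both took less of the total on the FTO-labelled array, and a lower share of ribosomal protein mRNA cannot be told apart from a lower signal of bright probes in general.

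**Figure D3:**
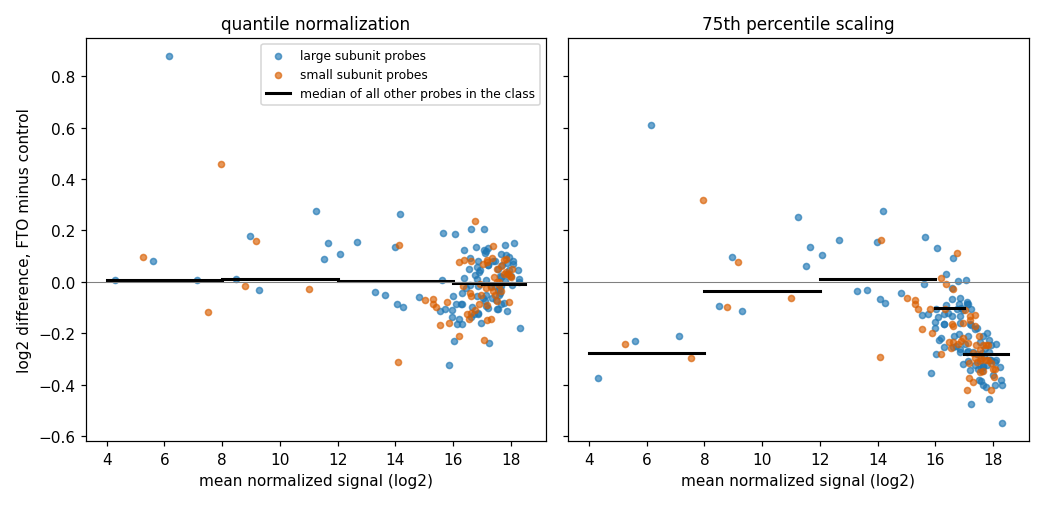
Log2 difference (FTO minus control, vertical axis) of each ribosomal protein probe against its mean normalized log2 signal (horizontal axis), with quantile normalization left and 75th percentile scaling right; black bars are the median of all other tested probes in 5 signal classes. On the right the members over 17 have a median of -0.30 and the other probes -0.28, and on the left both lie near 0.

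Components of the ribosome outside the symbol rule had a median log2 difference of -0.02, with 2 of 6 genes above 0. Fau, a fusion of a ubiquitin-like protein with a small subunit protein, read 248599 and 234960 with a log2 difference of -0.01. Rack1, a signalling scaffold on the small subunit, had a difference of -0.12, and Rpl36al, Rpl7l1 and Rpl22l1 had -0.09, -0.02 and 0.06. Of the 6 components on the list 0 had a value past 2-fold, against 2.63% of all genes.

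Other gene groups of protein synthesis also had medians near 0 after quantile normalization. The 77 mitochondrial ribosomal protein genes, which serve the separate ribosome of the mitochondrion, had a median log2 difference of -0.02, with 29 above and 47 below 0 and a range of -0.21 to 0.36. The 39 translation factor genes had a median of 0.01, with 20 above and 19 below 0. The 57 ribosome biogenesis genes, which cover RNA polymerase I and the processing of ribosomal RNA, had a median of -0.01, with 25 above and 31 below 0. Past 2-fold were 0 gene values of these lists, against the 2.63% of all genes. Under 75th percentile scaling the medians were -0.04, -0.09 and -0.01, compared with -0.21 for the large and -0.24 for the small cytosolic subunit. The sets were not matched for brightness, with which the shift under this scaling varied.

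**Figure D4:**
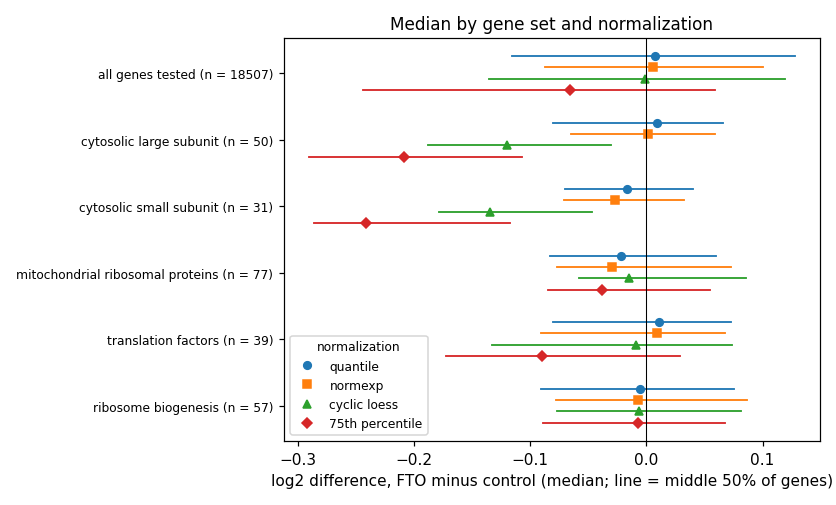
Median log2 difference (FTO minus control, horizontal axis) of gene sets under 4 normalizations; symbols are medians and lines the middle 50% of genes, which is spread over genes and not an error between cultures. With quantile normalization and normexp all medians lie between -0.03 and 0.01, and with 75th percentile scaling the cytosolic subunits lie at -0.21 and -0.24 while the mitochondrial set lies at -0.04. The sets are not matched for brightness.

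Part of the FTO-labelled array had lost signal for dim probes, as judged from 73 repeated probes in 35 blocks of its surface. In 6 blocks at least 15% of their spots lay more than 0.5 (log2) below their probe's median. The share was 24.8% in these 6 blocks and 1.88% elsewhere, a contrast that follows in part from how the blocks were chosen. These repeated probes had a median log2 signal of at most 8 on the control-labelled array. Of the 169 member probes 128 had a mean log2 signal over 16, and loss at that brightness was not tested. Of the member probes 31 lay in these blocks, with a median log2 difference of 0.01, and 15 of them were below 0. Among the ribosomal genes named above, the single probes of Rpl5, Rplp2, Rps19, Fau and Rpl22l1 lay in these blocks. The median of the member probes outside was -0.01, and the median of the genes without the probes in these blocks was -0.01.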

How the data were processed

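Total RNA of the transduced MIN6 cells was labeled with Cy3 and hybridized to single-color Agilent mouse arrays, 1 per condition. The authors deposited spot intensities from Agilent Feature Extraction 11.0.1.1, with background subtracted, the trend across the array removed and no normalization between arrays. They also deposited log2 values of 33870 probes, quantile normalized in GeneSpring GX per the methods.

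From the spot intensities, control and outlier spots were left out, log2 signals were averaged over repeated spots, and limma 3.58.1 (R 4.3.3) quantile normalized both arrays together. Python 3.11.15 with pandas 2.3.3, numpy 2.4.6 and matplotlib 3.10.9 did the rest. Probes were named through accessions in the RefSeq annotation of GRCm38.p6, which named 27224 of 39417 probes. Probes had to be well above background on 1 or both arrays (repeated probes, on over 50% of spots). The spot error combines the Feature Extraction error estimates of both spots. Members and lists were chosen with earlier results of these data known. Named were the 6 highest and 6 lowest genes, those with probes spanning over 0.5, copies ending in l with their counterparts, Rpsa, the stalk genes, Fto and the other ribosome components. Some genes are not reported here by name. Further genes with several probes were named as examples after their values had been seen. Alternatives were scaling by the 75th percentile, cyclic loess, normexp (offset 50, on median spot intensities), the deposited log2 values, other background filters, the brightest probe of a gene, and surface blocks left out. The pyrimidine tract was read from RefSeq promoter sequence, and the steps were tested on simulated data.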

Additional observations from a re-analysis of the deposited data

How the results depend on the processing

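The number of ribosomal protein genes past 2-fold was 0 under all 8 alternatives set in advance, and the gap between the subunit medians, 0.03 as reported, lay between 0.02 and 0.03 under them. The medians of all members, of the large and of the small subunit moved only with the scaling. With the 75th percentile they were -0.23, -0.21 and -0.24, and with cyclic loess -0.12, -0.12 and -0.14. Under the other 6 alternatives (normexp, the deposited log2 table, other filters on background, the brightest probe of a gene and the blocks of lost signal left out) they lay between -0.03 and 0.02, and the sign of a median this close to 0 was not stable. Without normalization, an alternative added after the data had been seen, they were 0.19, 0.22 and 0.18, and 1 gene, Rpl10l, passed 2-fold. Of 25 named genes, 12 moved by more than their spot error with the 75th percentile, 4 with cyclic loess, and 1 each with normexp, no filter on background and the brightest probe. No alternative leaving out a replicate exists with 1 array per condition. No paired analysis was possible because each group has 1 array. The number of arrays and the signal over background of Rpl10l, Rpl3l and Rps4l limit what can be said of these copies.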
